A study of Mus musculus and Homo sapiens with 23 samples.

Results

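The genes described are 10 members of the Egr, Nr4a and Ier families and Btg2, which cells are known to switch on early after a stimulus: Egr1, Egr2, Egr3, Nr4a1, Nr4a2, Nr4a3, Ier2, Ier3, Ier5 and Btg2. They were chosen by symbol, through the RefSeq accession of each row, out of 21598 genes measured. All 10 had a row in both libraries. RNA was sequenced from BV2 cells. This immortalised mouse line derives from microglia, which are macrophages that live in the brain. The LPS library came from BV2 cells after 3 h with lipopolysaccharide (LPS), a component of the outer membrane of Gram-negative bacteria, and the unstimulated library from BV2 cells with no stimulus named. Each condition had 1 library, so no test across replicates and no p-value was possible, and every difference is one between these 2 libraries. The design text of the series names the histone mark H2BK20ac in several cell types and the response of microglia to LPS as its subject.

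Early response genes are transcribed within minutes of a signal because the factors that read their promoters are already present in the resting cell. Their transcripts are known to be short-lived. The Egr genes encode zinc finger transcription factors and the Nr4a genes encode orphan nuclear receptors, which in macrophages are known to be induced by LPS and to restrain inflammatory genes. The Ier genes encode small proteins of varied function, and Btg2 encodes an antiproliferative protein that brings the CCR4-NOT deadenylase to mRNA.

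At 3 h Ier3 was 4.37-fold higher in the LPS library than in the unstimulated library. The other members that were detected lay on both sides: Ier5, Btg2 and Nr4a3 had higher FPKM (fragments relative to the length of the transcript and the size of the library) in the LPS library, and Ier2, Egr2, Egr3, Nr4a1 and Nr4a2 had lower FPKM there. Egr1 was listed at 0 in both libraries. The ratio of Nr4a3 was larger than that of Ier3, but it rests on 2 fragments in the unstimulated library. Under the 3 scalings tried (TPM, median change scaled to 0 and quantile normalisation), 0 of the 9 detected members changed sides. The first 2 multiply each library by 1 factor, so they could hardly have turned them. That factor was 1.22 for the LPS library with the median change scaled to 0, and the ratios nearest to 1 were 1.55 and 0.532. A listed 0, as that of Egr3, stays 0 under such a factor.

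Promoter sequences of 7 members were found in the RefSeq table of assembly GRCm38.p6 and were searched on both strands in windows of 250 bases before to 50 after the transcription start. Of them, 5 are shown, because they belong to members on either side of the comparison and hold motifs of the factors best known for early genes. The 250 bases before the start are given, 5′ to 3′ on the strand of the gene, with capitals at an NF-kB site in Ier3, the CArG box (the site of serum response factor) in Egr2, the CRE TGACGTCA (the site of CREB) and the EGR site GCGNGGGCG in Btg2, the EGR site and the CRE core TGACG in Nr4a1, and the CRE core in Nr4a3. A motif on the opposite strand appears as its reverse complement, so that TGACG reads CGTCA.
Ier3, chr17:35821463-35821712, plus strand: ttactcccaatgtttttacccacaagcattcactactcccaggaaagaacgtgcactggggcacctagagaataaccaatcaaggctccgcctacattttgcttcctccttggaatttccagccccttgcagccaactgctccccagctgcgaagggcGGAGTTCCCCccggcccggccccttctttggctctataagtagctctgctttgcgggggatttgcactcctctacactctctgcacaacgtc
Egr2, chr10:67537619-67537868, plus strand: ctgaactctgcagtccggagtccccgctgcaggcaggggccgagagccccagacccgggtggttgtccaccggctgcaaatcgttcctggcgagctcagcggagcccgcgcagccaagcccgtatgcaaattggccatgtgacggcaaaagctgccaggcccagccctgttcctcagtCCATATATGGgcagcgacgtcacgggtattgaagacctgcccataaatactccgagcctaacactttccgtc
Btg2, chr1:134079156-134079405, minus strand: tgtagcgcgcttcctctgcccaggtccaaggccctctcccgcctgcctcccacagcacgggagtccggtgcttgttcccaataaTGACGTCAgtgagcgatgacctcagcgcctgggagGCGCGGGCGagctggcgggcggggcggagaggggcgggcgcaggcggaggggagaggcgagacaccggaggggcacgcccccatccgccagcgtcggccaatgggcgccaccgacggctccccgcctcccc
Nr4a1, chr15:101266596-101266845, plus strand: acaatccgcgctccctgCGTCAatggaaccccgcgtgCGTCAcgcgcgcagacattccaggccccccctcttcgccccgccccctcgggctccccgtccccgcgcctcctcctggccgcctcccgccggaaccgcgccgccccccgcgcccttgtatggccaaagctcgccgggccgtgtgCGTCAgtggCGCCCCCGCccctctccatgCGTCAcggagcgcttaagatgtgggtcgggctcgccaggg
Nr4a3, chr4:48045055-48045304, plus strand: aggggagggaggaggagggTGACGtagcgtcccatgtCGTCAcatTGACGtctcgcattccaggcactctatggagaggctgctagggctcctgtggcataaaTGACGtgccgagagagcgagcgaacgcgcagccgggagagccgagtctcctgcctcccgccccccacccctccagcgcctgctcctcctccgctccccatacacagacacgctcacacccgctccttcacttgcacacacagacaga

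The motifs were unevenly spread over the members. The 7 members had 11 windows, several of them of Egr2. Members are counted here by gene and the percentages by window, so the number of members with a motif is not a share to compare. The NF-kB site of Ier3 lay 92 to 83 bases before the start. Such a site was present in windows of Egr2, Ier3 and Nr4a1 and in 8.46% of all 32851 windows. That of Egr2 was found only in the window that begins at base 67535249, outside the Egr2 sequence shown. A CArG box was present in windows of Egr2 and of no other member searched, 72 to 63 bases before the start of the sequence shown, and in 1.63% of all windows. The full CRE was found in Btg2, 166 to 159 bases before its start, and in 1.79% of windows; its core TGACG, which is part of the full CRE, was in Btg2, Egr2 and each Nr4a gene and in 20.8% of windows. Nr4a1, Nr4a2 and Nr4a3 held 4 such cores each, and the share of all windows with that many was not computed. The EGR site was present in Btg2, Nr4a1 and Nr4a2 and in 5.55% of windows. The response element of the Nr4a receptors, NBRE (AAAGGTCA), and the AP-1 site TGANTCA were in none of the 7 members' windows and in 1.51% and 7.81% of all windows. These matches are descriptions of letters, and binding was not measured here.

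**Figure D1:**
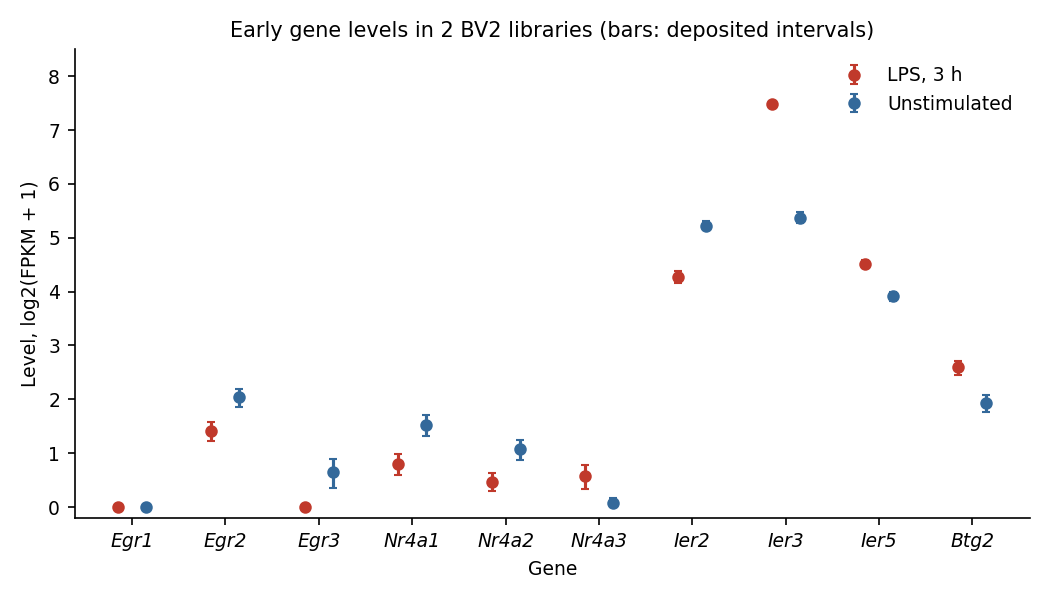
Level of each member as log2(FPKM + 1) in the LPS library (red, left of each pair) and the unstimulated library (blue), with bars for the deposited 95% intervals. Ier3 reached 177 FPKM in the LPS library against 40.4 FPKM in the unstimulated library, and Egr1 was at 0 in both. For the 9 genes other than Egr1 the 2 intervals were apart. Among genes that reached 1 FPKM in either library they were apart for all 7 members, beside 73.6% of all such genes. The LPS interval of Egr3 was listed as 0 to 0 and has no width.

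Among the Ier genes, Ier3 (NM_133662; mm9 chromosome 17, 35958658 to 35959856), an NF-kB target that modulates cell survival and ERK signalling, was at 177 FPKM (deposited 95% interval 171 to 183) in the LPS library and at 40.4 FPKM (37.6 to 43.3) in the unstimulated library. The intervals were far apart, and the LPS value was the higher. The ratio of 4.37 had an exact counting interval of 4.05 to 4.73, from 3615 fragments in the LPS library and 787 in the unstimulated library. On the scale of log2(FPKM + 1) the change was 2.10, and it passed the rule of size used here, a change of at least 1 in either direction. Of 10035 genes that reached 1 FPKM in either library and were counted, 8.55% were higher by that rule and 12.4% lower, and the change of Ier3 ranked 340 from the highest. Ier3 also moved up in the order of levels: 95.8% of detected genes lay below it in the LPS library and 87.1% in the unstimulated library.

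Ier2 (NM_010499; mm9 chromosome 8, 87185230 to 87186751), a nuclear protein gene and a classic early response to serum, was at 18.4 FPKM (16.9 to 19.97) in the LPS library and at 36.4 FPKM (34.2 to 38.6) in the unstimulated library. Its LPS value was the lower and the intervals did not overlap. The ratio was 0.506 (0.456 to 0.561), and the change of -0.95 was just short of the size rule. It passed the rule as TPM (-1.16) and under quantile normalisation (-1.01). Ier5 (NM_010500; mm9 chromosome 1, 156943497 to 156946766), whose protein binds heat shock factor 1 and protein phosphatase 2A, was at 21.8 FPKM (20.7 to 23.0) in the LPS library and at 14.1 FPKM (13.2 to 15.0) in the unstimulated library. Here the LPS value was the higher, again with separate intervals, with a ratio of 1.55 (1.43 to 1.68) and a change of 0.60 that was within the rule. The order of Ier2 and Ier5 thus differed between the libraries: Ier5 lay above Ier2 in the LPS library and Ier2 above Ier5 in the unstimulated library, with intervals apart both times.

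Btg2 (NM_007570; mm9 chromosome 1, 135971442 to 135975732) was at 5.03 FPKM (4.48 to 5.58) in the LPS library and at 2.81 FPKM (2.39 to 3.24) in the unstimulated library. The intervals were apart with the LPS value above, at a ratio of 1.79 (1.48 to 2.16). Its change of 0.66 was within the size rule, and 12.5% of counted genes had a higher one.

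The Egr genes were low in both libraries. Egr2 (NM_010118; mm9 chromosome 10, 67000617 to 67004936), which in macrophages is known as a factor of alternative activation, was at 1.65 FPKM (1.33 to 1.97) in the LPS library and at 3.10 FPKM (2.65 to 3.55) in the unstimulated library. Its LPS value was the lower with separate intervals, at a ratio of 0.532 (0.415 to 0.679) and a change of -0.63, within the rule. Egr3 (NM_018781; mm9 chromosome 14, 70477252 to 70479964), a target of NFAT in lymphocytes, was listed at 0 in the LPS library and was at 0.563 FPKM (0.272 to 0.854) in the unstimulated library, a value that rests on 15 fragments. In the LPS library 3 fragments of Egr3 would have been 0.107 FPKM, so the gene was below that level or not detectable there, and no ratio is given.

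Egr1 (NM_007913; mm9 chromosome 18, 35020861 to 35024610), the most studied early gene of the family, was listed at 0 FPKM in the LPS library and at 0 FPKM in the unstimulated library, with status OK in both. The genes next to it were read in both libraries. Kdm3b, 21.8 kb before it, was at 2.02 FPKM (1.80 to 2.25) in the LPS library and at 2.66 FPKM (2.39 to 2.92) in the unstimulated library, and the translation termination factor gene Etf1, 37.8 kb after it, was at 50.1 FPKM (48.5 to 51.6) and at 47.9 FPKM (46.4 to 49.5). These neighbours were singled out after their values were seen. A listed 0 in a table of FPKM can also be an estimate that failed, and the tables hold no count of fragments for this gene.

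The Nr4a receptors were low as well, and they went different ways. Nr4a1 (NM_010444; mm9 chromosome 15, 101097277 to 101105225), known as Nur77, was at 0.744 FPKM (0.506 to 0.982) in the LPS library and at 1.88 FPKM (1.49 to 2.27) in the unstimulated library. Nr4a2 (NM_001139509; mm9 chromosome 2, 56959637 to 56976414), known as Nurr1 for its part in dopamine neurons, was at 0.384 FPKM (0.230 to 0.540) in the LPS library and at 1.11 FPKM (0.843 to 1.38) in the unstimulated library. Both had the lower value in the LPS library with intervals apart. The ratios were 0.395 (0.265 to 0.580) for Nr4a1, from 39 and 94 fragments in the LPS and unstimulated libraries, and 0.345 (0.209 to 0.553) for Nr4a2, from 25 and 68 fragments. Their changes of -0.73 and -0.61 were within the size rule, and with a pseudocount of 0.1 in place of 1 both passed it (-1.23 and -1.33). The second row of Nr4a2, NM_013613, was near 0 in both libraries, so the gene's value is that of the other transcript.

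Nr4a3 (NM_015743; mm9 chromosome 4, 48064120 to 48096224), known as Nor1, was at 0.490 FPKM (0.265 to 0.715) in the LPS library and at 0.0542 FPKM (0 to 0.131) in the unstimulated library. The LPS value was the higher and the intervals were apart, but the values rest on 19 fragments in the LPS library and 2 in the unstimulated library. The ratio of 9.04 therefore had a counting interval of 2.18 to 80.1. Nr4a3 made up 30.3% of the summed FPKM of the 3 receptors in the LPS library and 1.78% in the unstimulated library, and the sum itself was 1.62 FPKM in the LPS library and 3.05 FPKM in the unstimulated library. The counting interval of the ratio lay above 1 for Nr4a3 and below 1 for Nr4a1 and Nr4a2.

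**Figure D2:**
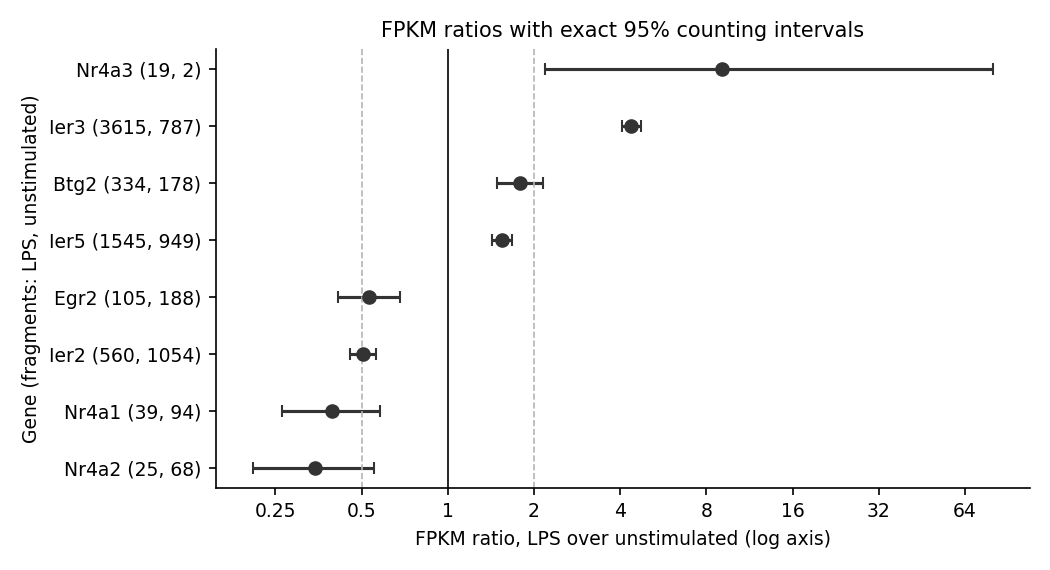
Ratio of FPKM, LPS over unstimulated, on a log axis for the 8 members above 0 in both libraries, with exact 95% counting intervals; the fragments behind each value stand beside the name, LPS first. Intervals of Nr4a3, Ier3, Btg2 and Ier5 lie above 1 and those of Egr2, Ier2, Nr4a1 and Nr4a2 lie below 1, and that of Nr4a3 is the widest of the 8.

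The order of levels was set by the Ier genes. In the LPS library it ran from Ier3 through Ier5, Ier2, Btg2 and Egr2 to the Nr4a genes, with neighbours apart down to Egr2 and Nr4a1, whereas the intervals of Nr4a1, Nr4a3 and Nr4a2 overlapped. In the unstimulated library it ran from Ier3 and Ier2, whose intervals overlapped, through Ier5 to Egr2 and Btg2, which also overlapped, and on to Nr4a1, Nr4a2, Egr3 and Nr4a3. There Nr4a2 and Egr3 overlapped and Nr4a3 lay below both. The summed FPKM of the 10 genes was 225 in the LPS library and 100.5 in the unstimulated library, of which Ier3 made up 78.5% and 40.3%. Without Ier3 the sums were 48.5 FPKM in the LPS library and 60.0 FPKM in the unstimulated library. A sum of this kind weighs a gene by its level.

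Counted by the size rule, 1 of the 7 members that reached 1 FPKM was higher (Ier3), 0 were lower and 6 were within the rule, beside 8.55% higher and 12.4% lower of all counted genes. The pseudocount of 1 understates changes of low genes such as Nr4a1 and Nr4a2. With a pseudocount of 0.1, 2 members were lower, beside 20.5% of counted genes. As TPM 1 was lower, beside 21.1%, and after quantile normalisation 1, beside 8.41%. Egr1, Egr3 and Nr4a3 reached 1 FPKM in neither library and were left uncounted. The deposited intervals were apart for all 7 counted members, but they were apart for 73.6% of all counted genes, with 25.1% higher and 48.5% lower in the LPS library, against 3 and 4 of the 7. The median change was -0.61 over the 7 counted members and -0.24 over all counted genes. It depends on the filter, which Nr4a1 and Nr4a2 passed only through their higher value in the unstimulated library. At a filter of 5 FPKM the median was 0.63 over the 4 members left and -0.14 over all genes left. The split of all called genes depended on scaling: 40.7% of them were higher with FPKM as deposited, 26.6% as TPM, 59.2% with the median change scaled to 0 and 53% after quantile normalisation. The median of all counted genes moved by -0.20, 0.24 and 0.11 under these scalings. Relative to that median on the deposited scale, the changes were 2.34 for Ier3, 0.90 for Btg2, 0.84 for Ier5, -0.37 for Nr4a2, -0.39 for Egr2, -0.49 for Nr4a1 and -0.71 for Ier2.

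**Figure D3:**
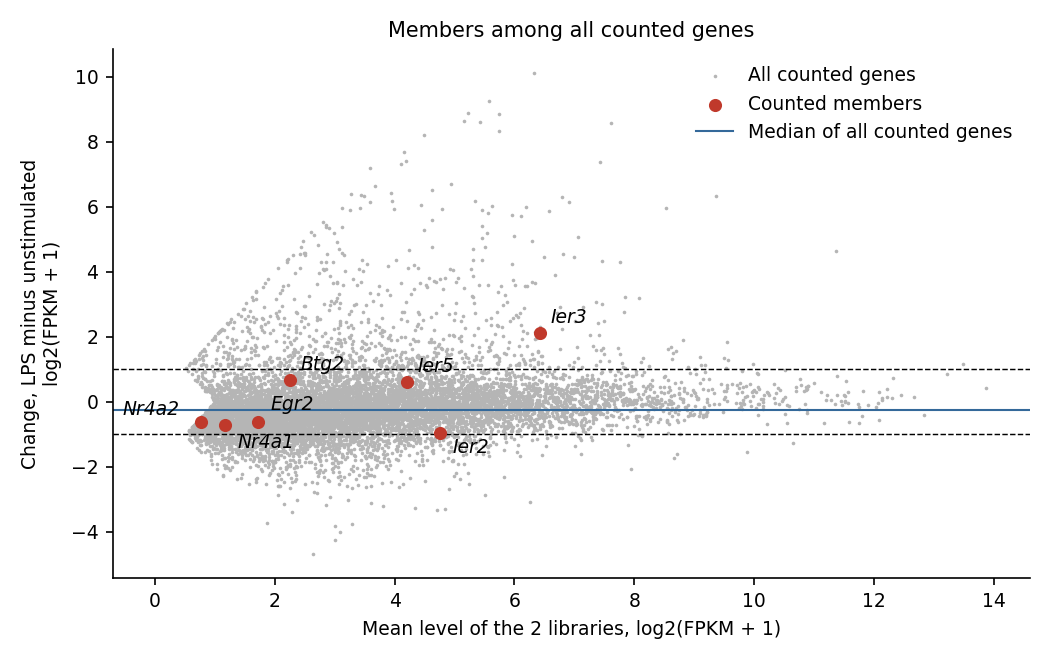
Change in log2(FPKM + 1), LPS minus unstimulated, against the mean level of the 2 libraries for the 10035 counted genes (grey) and the 7 counted members (red), with dashed lines at the size rule and a blue line at the median of all counted genes, -0.24. Ier3 lies at 2.10 above the upper line, Ier2 at -0.95 just inside the lower line, and the other 5 are between the lines.

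With only 2 libraries, a likeness of pattern is a closeness of 2 values. The counted genes nearest to Ier3 in log2(FPKM + 1) were Fam20c, a secretory pathway kinase gene, at 185 FPKM in the LPS library and 41.7 FPKM in the unstimulated library (distance 0.0811), and Anxa7, an annexin gene, at 169 FPKM and 37.7 FPKM (distance 0.121).

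Neighbouring genes were looked up for each member as the nearest counted gene on either side in mm9. Of these 20 genes 1 was higher and 2 were lower by the size rule, beside 8.55% higher and 12.4% lower of all counted genes, and their median change was -0.16. Gpd2, a mitochondrial glycerol phosphate dehydrogenase gene 114 kb after Nr4a2, was at 20.6 FPKM (19.8 to 21.5) in the LPS library and at 3.52 FPKM (3.12 to 3.91) in the unstimulated library. On the other side of Nr4a2, 3881 kb away, Arl6ip6 was at 4.06 FPKM in the LPS library and 11.0 FPKM in the unstimulated library. Cacna1a, a calcium channel gene 21.1 kb before Ier2, was at 1.05 FPKM in the LPS library and 6.51 FPKM in the unstimulated library. With a pseudocount of 5 the falls of Arl6ip6 and Cacna1a were short of the rule (-0.82 and -0.93). The closest pair was Ier3 and Flot1, a membrane scaffold gene 445 bases after it and named here after its values were seen. Flot1 was at 30.9 FPKM (29.1 to 32.8) in the LPS library and at 15.7 FPKM (14.3 to 17.1) in the unstimulated library, a change of 0.94, within the rule. It passed the rule (1.22) with the median change scaled to 0. The locus of 0 members overlapped that of another gene in the tables.

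Relatives and partners of the members went both ways. Of 9 counted, 1 rose, 3 fell and 5 were within the rule, beside 8.55% higher and 12.4% lower of all counted genes. Their median was -0.49, and -0.26 with the median change of all genes scaled to 0. The antiproliferative relatives of Btg2 went apart: Btg1 rose to 7.96 FPKM (7.42 to 8.49) in the LPS library, against 3.06 FPKM (2.72 to 3.40) in the unstimulated library, and Tob1 fell to 1.42 FPKM (1.07 to 1.76), against 5.99 FPKM (5.27 to 6.72). Tob2 was at 1.70 and 2.68 FPKM in the LPS and unstimulated libraries, within the rule, and Btg3 was near 0 in both. Rxra, the retinoid receptor that pairs with Nr4a1 and Nr4a2, fell to 1.35 FPKM (1.14 to 1.57) in the LPS library, against 5.20 FPKM (4.76 to 5.63) in the unstimulated library. Its paralog Rxrb was within the rule at 9.73 and 15.99 FPKM, and Rxrg was listed at 0 in both. Ier5l, the relative of Ier5, fell to 0.640 FPKM (0.354 to 0.926) in the LPS library, against 2.45 FPKM (1.88 to 3.03) in the unstimulated library. The corepressors of Egr proteins were within the rule: Nab1 was at 9.32 FPKM in the LPS library and 5.69 FPKM in the unstimulated library, and Nab2 at 7.82 and 9.97 FPKM. Ier3ip1, named for its binding to the Ier3 protein, was within the rule at 19.1 and 27.2 FPKM, and Egr4 was listed at 0 in both. With a pseudocount of 5, 0 of these genes passed the rule in either direction, and the call of Ier5l was also lost with the median change scaled to 0 and after quantile normalisation.

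Of 24 counted genes upstream of early gene transcription (serum response factor, CREB and the ERK cascade), 2 rose, 1 fell and 21 were within the rule, and the share that rose was near the 8.55% of all counted genes, with 12.4% lower. The median of -0.14 turned sign with scaling and filter: it was 0.12 with the median change scaled to 0, 0.07 under quantile normalisation and 0.18 at a filter of 5 FPKM, and -0.34 as TPM. Map3k8, the kinase Tpl2 that links LPS to ERK in macrophages, rose to 8.96 FPKM (8.14 to 9.78) in the LPS library, against 2.51 FPKM (2.06 to 2.96) in the unstimulated library. Rps6ka4, the kinase MSK2 that phosphorylates CREB and histone H3, rose to 18.9 FPKM (17.8 to 19.95), against 8.38 FPKM (7.65 to 9.10). Mrtfa, an actin-regulated cofactor of serum response factor, fell to 3.19 FPKM (2.75 to 3.63), against 7.49 FPKM (6.79 to 8.20). With a pseudocount of 5 these 3 calls were lost (0.89, 0.84 and -0.61). Rps6ka4 was also short of the rule after rescaling to TPM, and Mrtfa with the median change scaled to 0, after quantile normalisation and with its highest row alone.

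Other early response genes rose in large part. Of 35 counted, 18 rose, 3 fell and 14 were within the rule, beside 8.55% higher and 12.4% lower of all counted genes. The list, like the others, was chosen with earlier results of these data known, so these counts are a description only. The median change was 1.15, and it was 0.35 with no filter on low values, 0.58 with a pseudocount of 5 and 1.56 at a filter of 5 FPKM. Another 6 had a row but did not reach 1 FPKM. On the log2(FPKM + 1) scale the largest rises were those of Ptgs2, the inducible cyclooxygenase, with a change of 4.65, of Csrnp1, a nuclear protein gene at 43.0 FPKM (41.3 to 44.6) in the LPS library and 1.58 FPKM (1.25 to 1.90) in the unstimulated library, and of Phlda1, a pleckstrin homology protein gene at 11.2 FPKM (10.1 to 12.2) and 0.573 FPKM (0.328 to 0.817). The AP-1 subunits differed among themselves. Junb rose by 2.91 and Fos fell by 2.09 on the log2(FPKM + 1) scale, Jun was within the rule at 11.7 FPKM in the LPS library and 18.2 FPKM in the unstimulated library, and Fosb was listed at 0 in both. Rgs2, a regulator of G protein signalling, fell to 16.7 FPKM (15.6 to 17.7) in the LPS library, against 79.0 FPKM (76.7 to 81.2) in the unstimulated library. Sik1, a salt-inducible kinase and CREB target, fell to 0.815 FPKM (0.634 to 0.997), against 2.75 FPKM (2.41 to 3.09). Its call was lost with a pseudocount of 5, with the median change scaled to 0 and after quantile normalisation. Whether this list differs from the Egr, Nr4a and Ier genes was not tested.

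**Figure D4:**
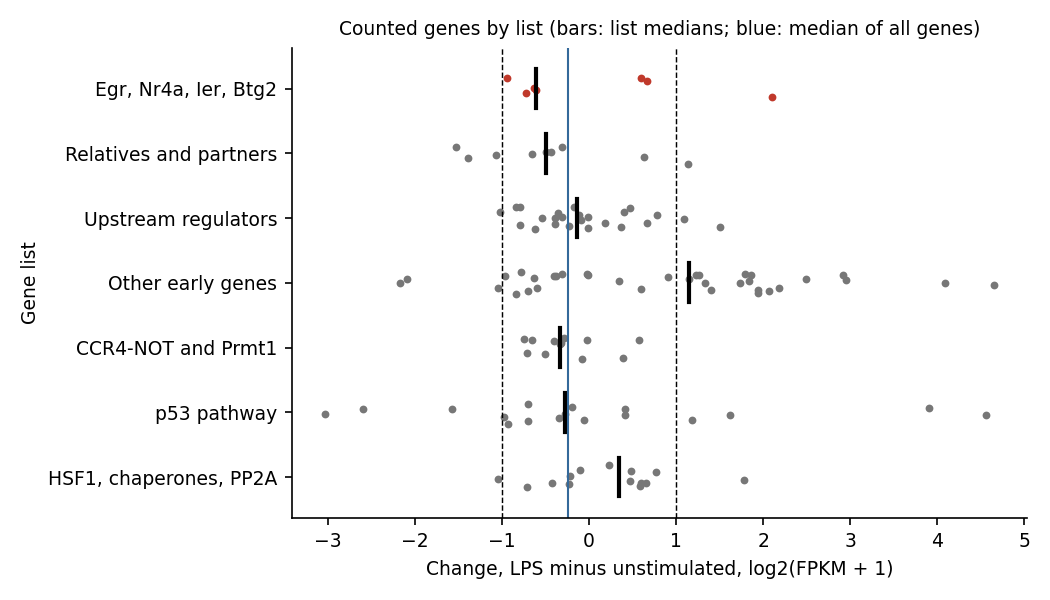
Change in log2(FPKM + 1), LPS minus unstimulated, of each counted gene (points, spread vertically only for sight) in 7 gene lists, with black bars at the list medians, dashed lines at the size rule and a blue line at the median of all counted genes, -0.24. The median of the Egr, Nr4a, Ier and Btg2 genes is -0.61, and that of the other early genes is 1.15. At a filter of 5 FPKM, not drawn, these medians were 0.63 and 1.56.

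Genes of the pathways in which single members act were read against the same shares of 8.55% higher and 12.4% lower. Of 17 counted genes of the p53 pathway, of which Btg2 is a known target, 4 rose and 3 fell, with a median of -0.28 that was -0.48 as TPM and -0.0023 with the median change scaled to 0. The death receptor gene Fas rose to 25.1 FPKM (22.7 to 27.5) in the LPS library, against 0.107 FPKM (0 to 0.248) in the unstimulated library, the kinase inhibitor gene Cdkn1a rose by 3.91 on the log2(FPKM + 1) scale, and Mdm2, the ligase of p53, rose to 24.6 FPKM, against 7.30 FPKM. Trp53, named to complete the count, rose by 1.18. As TPM it was short of the rule, and 3 of the 17 were higher. The stress protein gene Sesn1 fell to 0.819 FPKM (0.523 to 1.12) in the LPS library, against 13.9 FPKM (12.8 to 15.0) in the unstimulated library, Ddit4, an inhibitor of mTORC1 signalling, fell to 0.702 FPKM, against 9.31 FPKM, and the polymerase gene Polk fell to 0.647 FPKM, against 3.89 FPKM (short of the rule when 5 replaced 1 as the pseudocount). Of 12 counted CCR4-NOT deadenylase, Prmt1 and Pabpc1 genes, with which Btg2 acts, 0 rose and 0 fell, and their changes lay between -0.75 and 0.57 around a median of -0.33 (-0.54 as TPM and -0.06 with the median change scaled to 0). Of 14 counted genes of heat shock factor 1, its chaperones and protein phosphatase 2A, partners of Ier5 and Ier3, 1 rose and 1 fell. Their median was 0.35, and it was 0.15 as TPM, 0.63 with the median change scaled to 0 and 0.16 under quantile normalisation. The phosphatase subunit gene Ppp2r5a rose to 48.2 FPKM (46.5 to 50.0) in the LPS library, against 13.4 FPKM (12.5 to 14.3) in the unstimulated library. Its paralog Ppp2r5c fell to 12.5 FPKM (4.89 to 26.9), against 26.9 FPKM (25.3 to 28.5), with overlapping intervals and a call that was lost with a pseudocount of 5 and with the median change scaled to 0.

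Over the whole tables, 17592 rows were above 0 in the LPS library and 17920 in the unstimulated library of 28246. The fragments implied by the intervals came to 16910000 in the LPS library and 13790000 in the unstimulated library, rounded to 4 digits. The library size that scaled the FPKM of the members differed less, with a median ratio of 1.05, LPS over unstimulated. The totals also rest on intervals that for some genes hold more than counting error, so they are not taken as the sizes behind the deposited FPKM. Of 10 microglia and macrophage markers measured, 9 were counted, and their summed FPKM was 4354 in the LPS library and 5041 in the unstimulated library. They went both ways. Tyrobp, Fcgr3, Csf1r and Itgam were lower, at 3064, 500, 36.3 and 8.96 FPKM in the LPS library. In the unstimulated library they were at 4128, 598, 58.7 and 15.4 FPKM. Spi1, Ptprc and Aif1 were higher, at 707, 33.3 and 3.88 FPKM in the LPS library. In the unstimulated library these 3 were at 217, 16.9 and 3.19 FPKM. The intervals of Aif1 overlapped (2.87 to 4.88 in the LPS library and 2.26 to 4.12 in the unstimulated library). The microglial markers of the list, Cx3cr1, P2ry12 and Tmem119, were at 0.0615, 0.223 and 0.601 FPKM in the LPS library and at 0.142, 1.19 and 2.16 FPKM in the unstimulated library. Of the neuron, astrocyte and oligodendrocyte markers 0 reached 1 FPKM; the summed FPKM of the 8 neuron markers was 0.171 in the LPS library and 0.0300 in the unstimulated library, with 7 of them at 0 in both. The fibroblast and endothelium list held 1 marker above 1 FPKM, Kdr (4.79 FPKM in the LPS library and 5.45 FPKM in the unstimulated library), and the lymphocyte list 1, Il7r (0.591 and 1.77 FPKM). In bulk RNA, fewer cells that express a gene and less RNA of it per cell cannot be told apart.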

How the data were processed

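RNA of 2 BV2 libraries was used, and the other 21 of 23 samples of the series, chromatin immunoprecipitation and input samples, were not used here. Trizol extraction of total RNA, a directional library kit and reads of 76 bases are given per the labels' protocols. The authors deposited FPKM values with a lower and an upper bound, made with Cufflinks on mm9 per the submitters' processing notes; the aligner, the annotation release and any use of strand were not given in the sources used here.

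Gene symbols were looked up by accession in a GRCm38.p6 table of RefSeq, from which no coordinates were taken, and were found for 27560 of 28246 rows (97.6%). Deposited starts were read as 0-based, because locus lengths then matched those of RefSeq for 7545 of 18124 single-row genes, against 457 otherwise. Rows with a status other than OK in either library (391) and 703 rows of small RNA genes were left out, rows of 1 symbol were summed and half-widths combined in quadrature. The change is log2(FPKM + 1), LPS minus unstimulated; the pseudocount of 1 understates changes of low genes. A gene was counted at 1 FPKM or more in either library and called at a change of at least 1. With a half-width of 2 SD, (2 × FPKM / half-width) squared gives the fragments behind a value; for the 10 member values under 200 fragments, 10 came within 0.05 of a whole number. Ratios without pseudocount carry exact (Clopper-Pearson) 95% intervals from these fragments, which cover counting error only. The deposited intervals cover no spread between cultures either. Some are wide and uneven, as that of Ppp2r5c (4.89 to 26.9 around 12.5 FPKM in the LPS library), and so hold more than counting error.

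Named genes were all members and relatives, up to 3 rises and 3 falls past the rule from each other list, Fos, Fosb, Jun and Junb, the 2 genes nearest in pattern and neighbours past the rule. The members and lists were chosen with earlier results of these data known. Promoter sequences are RefSeq's, of GRCm38.p6; Egr3, Ier2 and Egr1 were not searched, and protein sequences were not used here. The functions were tested on simulated data. Python 3.11.15, pandas 2.3.3, numpy 2.4.6, scipy 1.17.1 and matplotlib 3.10.9 were used.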

Additional observations from a re-analysis of the deposited data

How the results depend on the processing

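No paired analysis was possible because each condition had 1 library. Filters, row choices and pseudocounts cannot turn the sign of a single-row gene. Under the 3 scalings, 0 of 27 values of the 9 detected members changed sign. Of these values 25 stayed on their side of the size rule, the 2 others being those of Ier2. TPM and median scaling use 1 factor per library. The factor of 1.22 for the LPS library under median scaling could not turn ratios of at least 1.55 or at most 0.532. Ier3 stayed between 1.91 and 2.39 under all 10 alternatives. With a pseudocount of 0.1, 2 members were lower (median -0.87), as were 5 other early genes, 6 p53 genes and 2 upstream genes. With a pseudocount of 5 the members' median was -0.18, and 0 relatives and 0 upstream genes were called in either direction and 0 genes of the heat shock and phosphatase list were lower. The median was -0.31 with no filter and turned to 0.63 at a filter of 5 FPKM, which leaves 4 members. After rescaling to TPM, 1 member was lower (median -0.87), as were 6 other early, 5 p53 and 4 upstream genes, and 1 upstream gene was higher. With the median change scaled to 0, 0 upstream genes were lower and 2 and 0 of the heat shock and phosphatase list were higher and lower. After quantile normalisation 1 member was lower (median -0.28), as were 2 of that list and 0 upstream genes. At a rule of 1.5-fold, 3 members were higher and 4 lower, with 2 relatives and 4 upstream genes higher, 5 upstream, 9 other early, 7 p53 and 3 CCR4-NOT genes lower, and 5 and 2 of the heat shock and phosphatase list higher and lower. Depth limits Egr3, Nr4a2 and Nr4a3, each with 25 or fewer fragments in a library, and without replicates no value has a spread between cultures.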
